A study of Mus musculus with 16 samples.

Results

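The Serpin family was examined in mouse liver as 48 genes of the 19938 that the array annotation names with a single symbol. A gene was taken as a member when the only symbol listed for its probe set starts with Serpin, and the pseudogene Serpina4-ps1 was kept. The rule prefers the brightest probe set where a gene has several, but no Serpin gene had more than 1. Under this rule the members were chosen by symbol alone and no measured value selected any of them. The members and the rule were settled with earlier results of these data known, so the choice was not blind to them. The family's shares of calls given below carry this limit. Clade A, the antitrypsin-like group of secreted proteins, supplied 15 genes, and clade B, the intracellular ovalbumin-like group, supplied 24. Clades F and I held 2 genes each, and clades C, D, E, G and H held 1 each. A further 5 probe sets carry the symbols of several Serpin genes and were kept out of the tests. Serpine2, Serpina1a, Serpina1b, Serpina1e, Serpina3k and Serpina3m had no probe set of their own.

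Livers of 16 male mice aged 4 months, snap frozen after removal, were hybridised to Affymetrix Mouse Gene 1.0 ST arrays, with 4 mice in each of 4 groups. Heterozygotes were Mut +/-;TgINS-MCK-Mut and mutants were Mut -/-;TgINS-MCK-Mut, so every mouse carried the transgene, in which the muscle creatine kinase promoter (MCK) drives the enzyme lost in methylmalonic acidemia. Each genotype was sampled unfasted on a normal diet and after a fast, which lasted 12 hours in heterozygotes and 8 to 12 hours in mutants. In the fasted state, genotype and length of the fast therefore cannot be told apart.

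Serpins share a fold with an exposed reactive loop. A target protease cuts this loop, the loop swings into the body of the serpin, and the protease stays bound and inactive. Hepatocytes secrete most of the serpins of blood plasma, among them the inhibitors of elastase, thrombin, plasmin and the C1 complement proteases. Some members no longer inhibit proteases and instead carry hormones or help collagen to fold.

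Values are the deposited RMA intensities on the log2 scale, on which a difference of 1 is a doubling. A fold difference is taken from the group means on that scale. Differences are given as the first group minus the second ± standard error (SE) from a limma fit over all genes, and a gene is called when its two-sided p-value, adjusted over the 19938 genes by the Benjamini-Hochberg method, is under 0.05. Array medians lay between 7.33 and 7.40. The targeted gene, Mmut, read 9.66 to 10.1 on the 8 heterozygous arrays and 7.85 to 8.33 on the 8 mutant arrays, without overlap. Of 6 measured hepatocyte markers, Alb, albumin, read 13.49 to 13.66 over the arrays, and Arg1, the marker with the lowest array, 11.69 to 12.71. By limma, 1 of them was called lower in unfasted mutants and 0 in fasted mutants, where 2 were lower at an unadjusted p under 0.05; their part in the lower plasma serpins was not tested. Replicate 1 of the unfasted mutants stood apart by pancreas RNA: the mean of 9 measured acinar cell markers was 10.65, while the remaining 15 arrays gave 6.68 to 6.91. In such bulk tissue, fewer cells of a type and less RNA per cell cannot be told apart.

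The start regions of the 5 clade A genes whose genotype results are described at most length and for which a sequence was at hand are shown here, so that the recognition motifs of liver and acute phase factors near them can be read. Each is a window of 300 bases around a RefSeq start site (GRCm38.p6), most of it upstream, on the minus strand, written 5′ to 3′. Capitals mark matches on either strand to GTTAAT (the core of an HNF1 site), TTGCNNAA (C/EBP) or TTCNNNGAA (STAT). Serpina7 lies at chrX:139085170-139085469, Serpina12 at chr12:104044394-104044693, Serpina11 at chr12:103989894-103990193, Serpina1c at chr12:103904901-103905200 and Serpina1d at chr12:103773584-103773883. For Serpina7 and for Serpina11 this is 1 of the 2 windows of the gene.
Serpina7: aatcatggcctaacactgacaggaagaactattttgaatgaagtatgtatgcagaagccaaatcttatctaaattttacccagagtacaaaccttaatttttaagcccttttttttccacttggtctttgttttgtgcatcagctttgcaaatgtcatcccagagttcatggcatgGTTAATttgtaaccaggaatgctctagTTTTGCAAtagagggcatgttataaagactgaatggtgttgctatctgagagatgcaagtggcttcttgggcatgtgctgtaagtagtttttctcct
Serpina12: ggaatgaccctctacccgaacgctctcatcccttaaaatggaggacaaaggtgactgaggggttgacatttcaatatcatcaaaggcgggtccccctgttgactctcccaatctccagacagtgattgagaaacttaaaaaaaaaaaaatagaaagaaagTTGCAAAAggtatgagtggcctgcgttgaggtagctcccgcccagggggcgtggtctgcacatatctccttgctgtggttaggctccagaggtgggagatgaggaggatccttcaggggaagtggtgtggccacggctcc
Serpina11: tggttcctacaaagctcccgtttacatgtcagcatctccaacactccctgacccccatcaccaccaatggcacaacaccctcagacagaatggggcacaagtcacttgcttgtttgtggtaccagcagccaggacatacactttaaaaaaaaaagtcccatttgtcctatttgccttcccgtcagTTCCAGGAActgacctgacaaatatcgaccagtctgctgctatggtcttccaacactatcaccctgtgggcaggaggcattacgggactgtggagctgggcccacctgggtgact
Serpina1c: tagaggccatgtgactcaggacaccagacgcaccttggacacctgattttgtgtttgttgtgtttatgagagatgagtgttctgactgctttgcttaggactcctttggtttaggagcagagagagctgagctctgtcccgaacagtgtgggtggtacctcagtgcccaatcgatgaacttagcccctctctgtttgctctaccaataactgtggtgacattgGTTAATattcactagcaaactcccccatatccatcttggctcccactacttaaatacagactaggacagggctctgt
Serpina1d: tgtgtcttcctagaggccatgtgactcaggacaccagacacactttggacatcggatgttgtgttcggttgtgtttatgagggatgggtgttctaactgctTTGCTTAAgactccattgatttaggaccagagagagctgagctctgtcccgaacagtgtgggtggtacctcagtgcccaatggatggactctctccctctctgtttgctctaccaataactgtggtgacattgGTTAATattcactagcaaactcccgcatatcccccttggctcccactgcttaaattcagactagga
Serpina7 and Serpina1d held an HNF1 core and a C/EBP match, Serpina1c an HNF1 core, Serpina12 a C/EBP match and Serpina11 a STAT match. No motif was present in all of these windows. The Serpina1c and Serpina1d windows, shifted by 11 bases, were identical at 225 of 289 positions (77.9%). Over 41 Serpin genes with a window, 6 held an HNF1 core, 10 a C/EBP match and 5 a STAT match in any of their windows. Of all 32851 windows, 7.1%, 10.8% and 8.3% held these motifs in the same order. The former are counts of genes, some with several windows, and the latter shares of single windows, so they cannot be compared directly. A match is a string of letters and not a shown binding site.

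Many family members were dim in liver. As the table holds no detection calls, a gene was called dim when its 4 group means were at or below 7.01, the 95th percentile of 1194 odorant and vomeronasal receptor genes, which liver is not known to use. By this limit 27 of 48 Serpin genes were dim. They comprised 19 of 24 in clade B, 6 of 15 in clade A, and both clade I genes, Serpini1 (neuroserpin) and Serpini2 (pancpin). With the 99th percentile of the receptors, 7.68, or the median of all genes, 7.67, as the limit, 30 were dim. Just inside the limit was Serpina3b with a highest group mean of 6.27, and just outside it Serpina12 with 7.17. The dim clade A genes were Serpina1f, Serpina3a, Serpina3b, Serpina5, Serpina9 and Serpina16, and of all 27 dim genes only Serpina9 was called in any contrast.

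**Figure D1:**
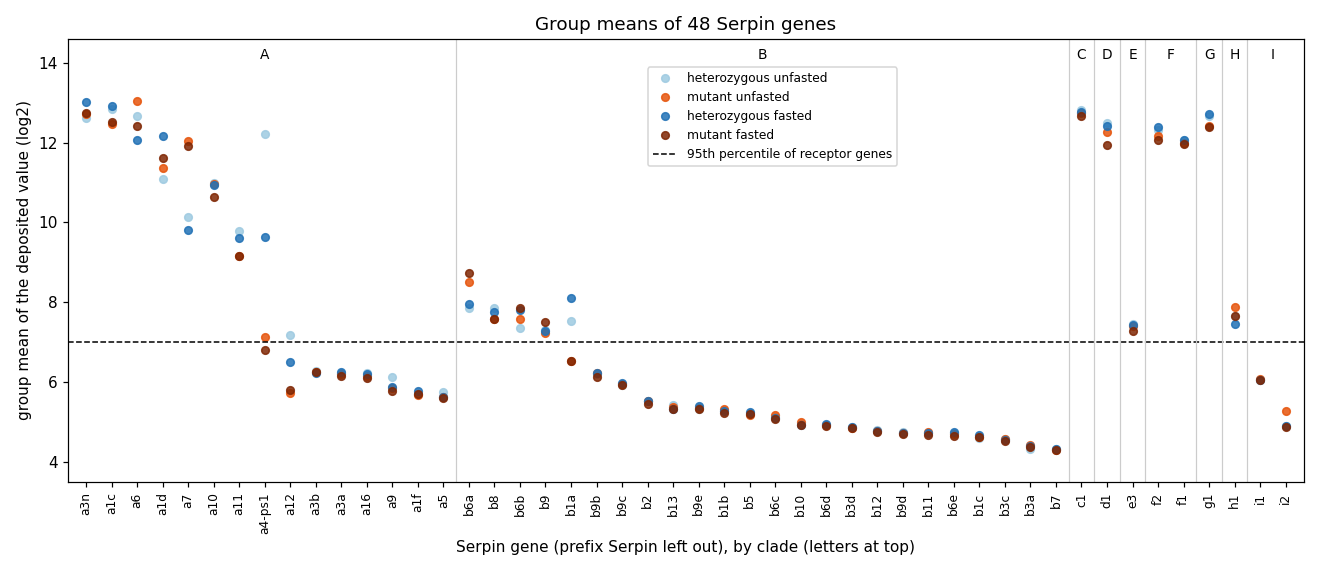
Mean deposited value (log2, vertical axis) of each of the 48 Serpin genes in the 4 groups (colours, 4 arrays each), ordered by clade and, within a clade, by mean. The dashed line is the receptor limit of 7.01, with 27 genes below it in every group; Serpina4-ps1, Serpina7, Serpina12 and Serpinb1a show the widest gaps between groups.

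In unfasted liver, 9 of 48 Serpin genes were called between mutants and heterozygotes (18.8%), against 7.94% of all genes. Serpina6, Serpina7 and Serpinb6a were higher in mutants. Serpina4-ps1, Serpina12, Serpina11, Serpina9, Serpina1c and Serping1 were lower. Of all genes, 4.25% were called higher and 3.69% lower. The median difference over the family was -0.01, beside 0.01 over all genes. Leaving out single arrays lowered the count to 4 (without mutant replicate 3, or heterozygous replicate 3 or 4), to 5 (without mutant replicate 2) and to 6 without mutant replicate 1, the array with acinar RNA.

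In fasted liver, 10 of 48 were called (20.8%), against 13.6% of all genes. Serpina6, Serpina7 and Serpinb6a were again higher. Serpina4-ps1, Serpina12, Serpina1c, Serpinb1a, Serpind1, Serpinf2 and Serping1 were lower. The shares over all genes were 8.62% higher and 5.01% lower, and the median difference was -0.05 in the family and -0.02 over all genes. The unfasted and fasted genotype contrasts compare different arrays. Both took the variance of each gene from the same fit over all arrays, so these contrasts are not independent. Of their calls, 7 were shared, which is 7 of the 9 unfasted and 7 of the 10 fasted calls, each in the same direction; the overlap was not tested.

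The groups did not overlap for 3 Serpin genes higher and 8 lower in unfasted mutants, where 12% of all genes showed such separation (6.16% higher and 5.83% lower). In the fasted state they did not overlap for 3 higher and 12 lower, where 23.7% of all genes did (12.8% higher and 11% lower). The family's separated genes were thus mostly lower in mutants, while those of all genes were split more evenly; the difference was not tested.

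**Figure D2:**
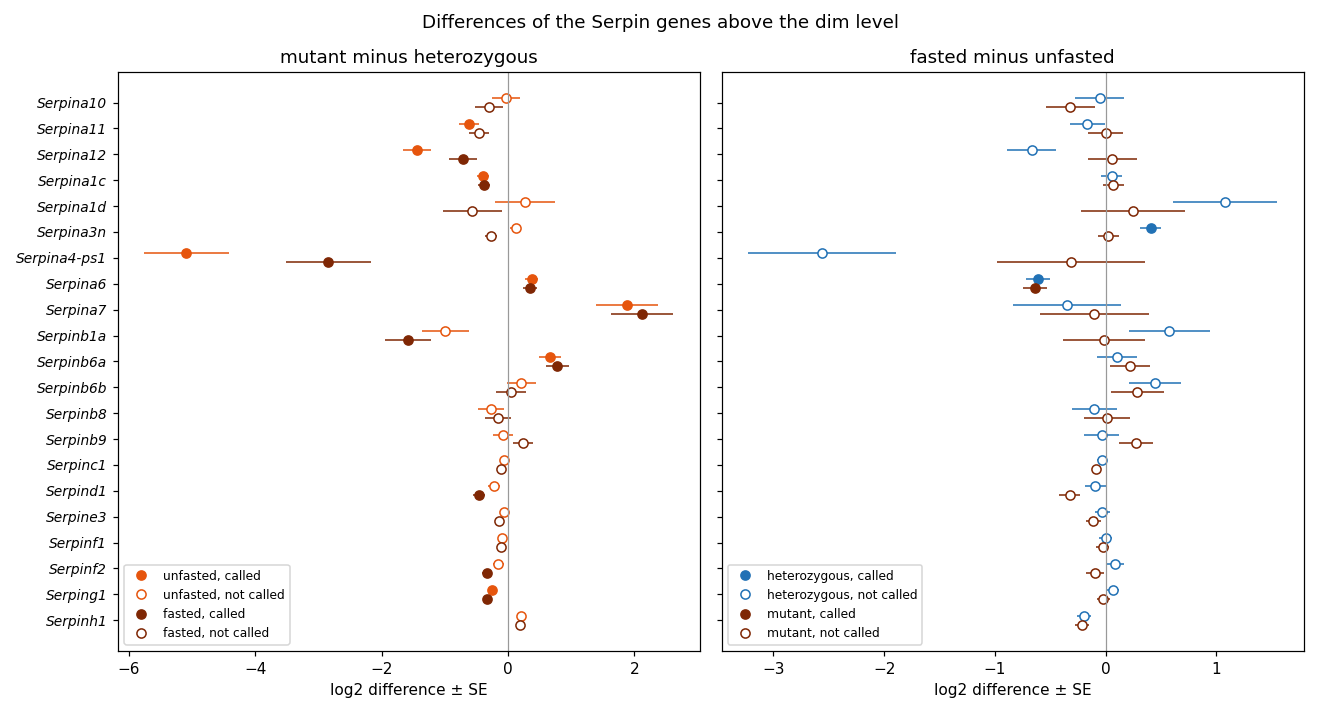
Log2 differences ± SE (horizontal axis) of the 21 Serpin genes above the dim limit, for mutant minus heterozygous on the left and fasted minus unfasted on the right; filled points are called at an adjusted p under 0.05. Serpina4-ps1 at -5.09 and Serpina7 at 2.13 are the extremes of the left panel, and Serpina6 is the only gene filled in both fasting contrasts on the right.

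Among the hormone carriers, Serpina7, thyroxine-binding globulin, which carries thyroid hormone in plasma, was higher in mutants in both feeding states. Its values on the unfasted heterozygous arrays were 9.86, 10.57, 10.25 and 9.92, and on the unfasted mutant arrays 12.47, 12.21, 11.62 and 11.81. The fasted heterozygous arrays read 11.13, 9.77, 7.78 and 10.51, and the fasted mutant arrays 12.17, 12.21, 11.41 and 11.91. No heterozygous array reached a mutant array of the same feeding state, and fasted heterozygous replicate 3 was far below its group. The difference was 1.88 ± 0.49 unfasted (3.68-fold, adjusted p = 0.028) and 2.13 ± 0.49 fasted (4.37-fold, adjusted p = 0.010). Its SD was 0.33 to 0.39 in the other groups and 1.46 in fasted heterozygotes, and without replicate 3 there the fasted difference was 1.45. The unfasted call was lost without mutant replicate 1 or 2, or heterozygous replicate 1, 3 or 4 (adjusted p 0.059 to 0.079). Robust moderation also ended that call, which was lost in 6 of 26 other settings. Fasting moved Serpina7 by -0.35 ± 0.49 in heterozygotes and -0.10 ± 0.49 in mutants, and neither was called.

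Serpina6 is corticosteroid-binding globulin, the plasma carrier of glucocorticoids. It read 12.87, 12.80, 12.60 and 12.42 in unfasted heterozygotes and 13.04, 12.97, 13.05 and 13.13 in unfasted mutants. After the fast it read 12.07, 12.27, 11.89 and 12.00 in heterozygotes and 12.50, 12.28, 12.21 and 12.64 in mutants. The unfasted genotypes did not overlap, while fasted mutant replicate 3 lay below fasted heterozygous replicate 2. Mutants were higher by 0.37 ± 0.11 unfasted (1.29-fold, adjusted p = 0.045) and by 0.35 ± 0.11 fasted (1.27-fold, adjusted p = 0.042). Both genotype calls were near the threshold: each was lost in 10 of 26 other settings. The single arrays whose removal ended the unfasted call were any of the unfasted mutants, unfasted heterozygous replicates 3 and 4, and fasted heterozygous replicates 1 and 4 (adjusted p 0.058 to 0.15). For the fasted call they were fasted mutant replicates 1, 2 and 4, fasted heterozygous replicates 1, 3 and 4, and unfasted heterozygous replicate 3 (adjusted p 0.051 to 0.11).

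Serpina4-ps1, which its symbol marks as a Serpina4 pseudogene, showed the largest difference of the 48 members, with far lower values in mutants. It read 12.37, 12.26, 11.59 and 12.61 in unfasted heterozygotes, with a mean of 12.21 ± 0.44 (SD, n = 4), and 8.12, 8.72, 6.01 and 5.62 in unfasted mutants, with a mean of 7.12 ± 1.53. In fasted liver the heterozygous arrays read 9.47, 9.57, 9.15 and 10.39, and the mutant arrays 5.92, 6.05, 8.81 and 6.43. No mutant array reached a heterozygous one in either state, and the mutant arrays spread widely, with 3 of 8 above 8. The difference was -5.09 ± 0.67 unfasted (34.1-fold lower, adjusted p = 0.00046) and -2.84 ± 0.67 fasted (7.18-fold lower, adjusted p = 0.011). Both calls held in all 26 other settings. Several mutant values lie under the dim limit of 7.01, where a difference can be understated. The fasted minus unfasted difference was -2.56 ± 0.67 in heterozygotes, without overlap but not called (adjusted p = 0.071), and -0.31 ± 0.67 in mutants.

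Over the 16 arrays, the 5 genes whose values were most like those of Serpina4-ps1 by Pearson correlation were Hao1 (r = 0.96, Spearman rho = 0.97), Rap2a (0.94 and 0.91), Cpne3 (0.94 and 0.92), Zfp982 (0.92 and 0.95) and Pcyt2 (0.92 and 0.89). The arrays share their group differences. After the group means were removed, r was 0.80 for Hao1, 0.68 for Pcyt2, 0.54 for Rap2a, 0.52 for Cpne3 and 0.35 for Zfp982. These values are a description, picked as the highest among all genes.

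Serpina12, vaspin, a secreted inhibitor of tissue kallikreins known from fat tissue and linked to insulin sensitivity, was lower in mutants. Unfasted heterozygotes read 7.03, 6.59, 6.90 and 8.16, and unfasted mutants 5.76, 5.74, 5.61 and 5.81. Fasted heterozygotes read 6.54, 6.62, 6.22 and 6.62, and fasted mutants 5.75, 5.83, 5.79 and 5.79. All 8 mutant arrays lay below all 8 heterozygous arrays. Of the 16 arrays, only unfasted heterozygous replicates 1 and 4 were above the dim limit, so the gene is outside the dim class through the unfasted heterozygotes alone and its differences can be understated. The difference was -1.44 ± 0.22 unfasted (adjusted p = 0.0014) and -0.71 ± 0.22 fasted (adjusted p = 0.044). The unfasted call held in all 25 settings that tested it. The fasted call was lost in 12 of 25, among them the removal of any fasted mutant array, of fasted heterozygous replicate 1, 2 or 4, of unfasted mutant replicate 2 or of unfasted heterozygous replicate 1 (adjusted p 0.052 to 0.10).

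Serpina11, a clade A neighbour of Serpina12, read 9.74, 9.91, 9.82 and 9.65 in unfasted heterozygotes and 9.50, 9.35, 8.97 and 8.81 in unfasted mutants. Its fasted values were 9.72, 9.53, 9.56 and 9.65 in heterozygotes and 9.21, 8.67, 9.29 and 9.46 in mutants. The groups did not overlap in either state, with a wider spread among the mutants. The unfasted difference of -0.62 ± 0.16 was called (1.54-fold lower, adjusted p = 0.024), and the fasted one of -0.46 ± 0.16 was not (adjusted p = 0.065). The unfasted call was lost without mutant replicate 3 or 4 or heterozygous replicate 2 or 3 (adjusted p 0.058 to 0.073). The fasted difference passed without unfasted mutant replicate 1 or 4 or fasted mutant replicate 4 (adjusted p 0.037 to 0.046).

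Serpina9, centerin, described in germinal centre B cells, was dim throughout. It read 6.0, 6.07, 6.05 and 6.40 in unfasted heterozygotes and 5.82, 5.89, 5.87 and 5.81 in unfasted mutants, which did not overlap. Fasted heterozygotes read 5.91, 5.94, 5.92 and 5.74, and fasted mutants 5.70, 5.79, 5.93 and 5.72. The unfasted difference was -0.28 ± 0.08 (adjusted p = 0.031) and the fasted one -0.09 ± 0.08 (adjusted p = 0.43). The unfasted call was lost when any unfasted mutant array or unfasted heterozygous replicate 3 or 4 was left out (adjusted p 0.051 to 0.074). Array weights and a fit of the unfasted arrays alone also ended that call, which was lost in 8 of 24 other settings. All 16 values lie under the dim limit.

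Serpina11, Serpina9, Serpina12 and Serpina4-ps1 follow each other in the RefSeq order of the clade A cluster when only Serpina genes are counted. All of them were called lower in unfasted mutants, Serpina9 as a dim gene. In fasted mutants Serpina12 and Serpina4-ps1 were called lower, while Serpina11 (-0.46) and Serpina9 (-0.09) were not called. The cluster order runs over 28 Serpina genes from Serpina10 to Serpina3n, of which 14 were measured, with 13 genes of other symbols between them. On the far side of Serpina4-ps1 come Serpina5, Serpina3a and Serpina3b, with unfasted differences of -0.13, -0.01 and -0.01, none of them called and all dim. On the near side of Serpina11, Serpina1c was called lower and Serpina6 higher. Serpina10, Serpina16, Serpina1f and Serpina1d, also on that side, were not called, with unfasted differences of -0.03, -0.07, -0.02 and 0.27. Whether neighbouring genes differed more alike than others was not tested.

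**Figure D3:**
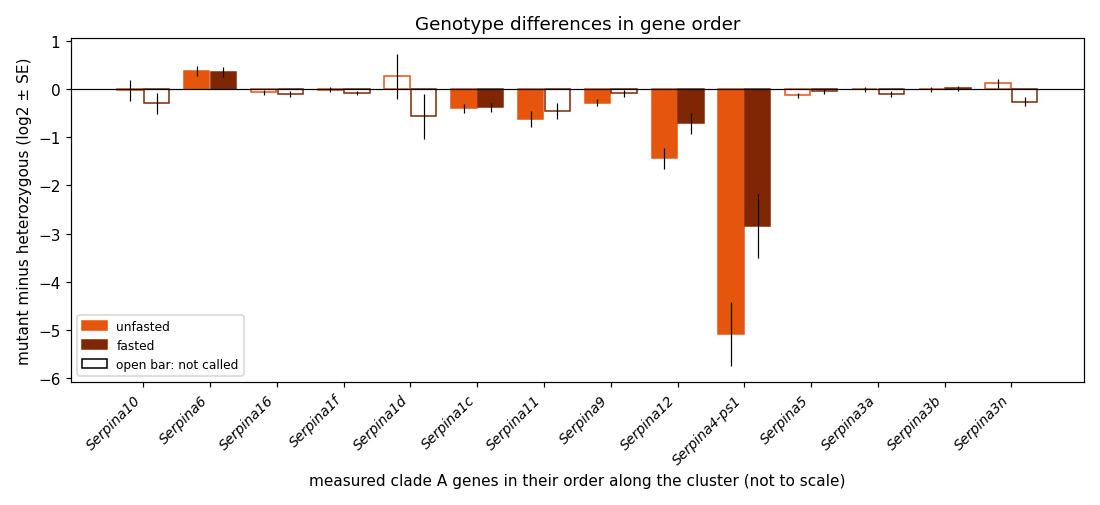
Mutant minus heterozygous difference (log2 ± SE, vertical axis) of the 14 measured clade A genes in their order along the cluster (horizontal axis, not to scale), unfasted and fasted; open bars are not called. The bars reach down to -5.09 at Serpina4-ps1, with Serpina12, Serpina9 and Serpina11 beside it also called lower in the unfasted state.

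The Serpina1 genes encode alpha-1-antitrypsin, the main plasma inhibitor of neutrophil elastase. Serpina1c read 12.87, 12.65, 12.78 and 13.12 in unfasted heterozygotes and 12.63, 12.54, 12.24 and 12.43 in unfasted mutants. After the fast it read 12.85, 12.95, 12.93 and 12.88 in heterozygotes and 12.45, 12.55, 12.65 and 12.45 in mutants. The genotypes did not overlap in either state. The difference was -0.40 ± 0.09 unfasted (1.31-fold lower, adjusted p = 0.017) and -0.38 ± 0.09 fasted (1.30-fold lower, adjusted p = 0.014). The fasted call held in all 26 other settings. The unfasted call was lost in 3: without mutant replicate 3 (adjusted p = 0.052), without heterozygous replicate 4 (adjusted p = 0.054) and in a fit of the unfasted arrays alone (adjusted p = 0.084).

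Serpina1d, whose start region is close in sequence to that of Serpina1c above, was called between genotypes in neither feeding state. It read 12.20, 9.92, 9.80 and 12.44 in unfasted heterozygotes and 11.75, 11.60, 11.35 and 10.75 in unfasted mutants. Fasted heterozygotes read 12.10, 12.22, 12.22 and 12.12, and fasted mutants 11.23, 11.87, 11.70 and 11.62. Replicates 2 and 3 of the unfasted heterozygotes were more than 2 log2 units below the other members of their group, whose SD of 1.42 was above that of 99.9% of all genes there. The difference was 0.27 ± 0.47 unfasted and -0.57 ± 0.47 fasted, and neither was called (adjusted p = 0.81 and 0.43). The fasted genotypes did not overlap, and a fit of the 8 fasted arrays alone, which leaves out those unfasted arrays, called the fasted difference (adjusted p = 0.012).

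Both probe sets that carry the symbols of all of Serpina1a to Serpina1e showed no such drop. Their unfasted means were 12.58 ± 0.11 and 13.02 ± 0.15 in heterozygotes and 12.41 ± 0.14 and 12.97 ± 0.08 in mutants (SD, n = 4). Fasted, they were 12.58 ± 0.05 and 13.05 ± 0.03 in heterozygotes and 12.44 ± 0.04 and 12.99 ± 0.02 in mutants. These were not tested. Since the Serpina1 copies are near identical, probes of 1 copy can bind RNA of another, and the values of Serpina1c and Serpina1d are uncertain to that extent.

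**Figure D4:**
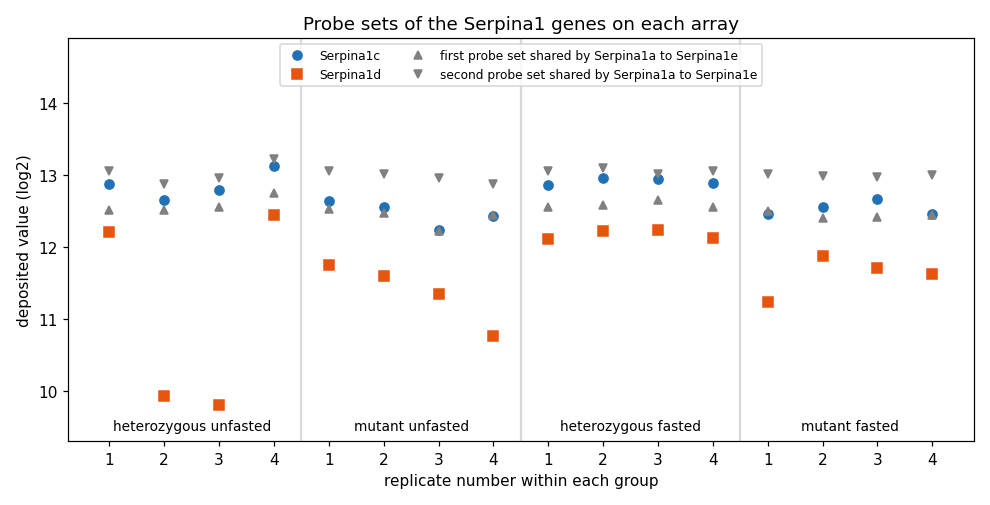
Deposited value (log2, vertical axis) of the Serpina1c and Serpina1d probe sets and of the 2 probe sets shared by Serpina1a to Serpina1e on each of the 16 arrays, by group and replicate number. Serpina1d falls to 9.92 and 9.80 on replicates 2 and 3 of the unfasted heterozygotes, where the other probe sets stay between 12.51 and 12.95.

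Serpina3n, an acute phase serpin of the antichymotrypsin group that inhibits granzyme B, was called in the fast of heterozygotes and not between genotypes. It read 12.86, 12.43, 12.59 and 12.55 in unfasted heterozygotes and 13.18, 12.90, 12.998 and 12.97 in fasted heterozygotes, without overlap. In mutants it read 12.86, 12.81, 12.48 and 12.74 unfasted and 12.77, 12.71, 12.84 and 12.67 fasted, which overlapped. The genotype difference was 0.12 ± 0.09 unfasted (adjusted p = 0.53) and -0.27 ± 0.09 fasted (adjusted p = 0.072). The fasted difference passed when replicate 3 of the unfasted mutants (adjusted p = 0.042) or replicate 1 of the unfasted heterozygotes (adjusted p = 0.044) was left out, and also in a fit of the fasted arrays alone (adjusted p = 0.027). As with Serpina1, close copies of Serpina3n exist and its probes may take up their RNA.

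Serpina10, the protein Z-dependent inhibitor of factor Xa, had unfasted means of 10.99 ± 0.25 in heterozygotes and 10.96 ± 0.44 in mutants (SD, n = 4). Its fasted means were 10.93 ± 0.44 and 10.64 ± 0.23. The groups overlapped, and the differences of -0.03 ± 0.22 unfasted and -0.29 ± 0.22 fasted were not called. The 7 clade A genes called in no contrast had genotype differences from -0.13 to 0.27 unfasted and from -0.57 to 0.01 fasted.

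Clade B serpins stay inside cells and guard them against stray proteases of lysosomes and granules. Of 24, 1 was called in unfasted liver (4.17%, against 7.94% of all genes) and 2 in fasted liver (8.33%, against 13.6%). Serpinb6a, an inhibitor of cathepsin G, read 7.92, 7.98, 7.67 and 7.81 in unfasted heterozygotes and 8.49, 8.41, 8.99 and 8.14 in unfasted mutants. Its fasted values were 8.03, 8.00, 8.04 and 7.73 in heterozygotes and 9.34, 8.54, 8.56 and 8.47 in mutants. All 8 mutant arrays were above all 8 heterozygous ones. The difference was 0.66 ± 0.18 unfasted (1.58-fold, adjusted p = 0.035) and 0.78 ± 0.18 fasted (1.72-fold, adjusted p = 0.011). The fasted call held in all 26 other settings, and the unfasted call was lost without mutant replicate 1, 2 or 3 or heterozygous replicate 3 or 4 (adjusted p 0.053 to 0.11).

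Serpinb1a, an inhibitor of neutrophil elastase and related enzymes, read 7.26, 7.91, 7.67 and 7.26 in unfasted heterozygotes and 6.48, 5.96, 6.27 and 7.43 in unfasted mutants. Fasted heterozygotes read 8.13, 8.83, 7.24 and 8.20, and fasted mutants 6.29, 6.14, 7.55 and 6.10. A single high mutant array made the groups overlap in each state, replicate 4 unfasted and replicate 3 fasted. The other mutant arrays lay under the dim limit, as did both mutant means (6.53 unfasted and 6.52 fasted), so the gene is outside the dim class through the heterozygotes alone. The fasted difference of -1.58 ± 0.37 was called (adjusted p = 0.011), and so it was in all 25 other settings. The unfasted one of -0.99 ± 0.37 was not (adjusted p = 0.12), but passed without mutant replicate 4, at -1.29 (adjusted p = 0.035).

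The remaining 22 clade B genes, 19 of them dim, were called in no contrast. Their genotype differences ran from -0.27 to 0.21 unfasted and from -0.15 to 0.24 fasted. The non-dim ones were Serpinb6b, Serpinb8, an inhibitor of furin, and Serpinb9, the intracellular inhibitor of granzyme B. Serpinb9 differed by -0.07 ± 0.16 unfasted and 0.24 ± 0.16 fasted (adjusted p = 0.85 and 0.31), Serpinb8 by -0.27 ± 0.21 and -0.15 ± 0.21 (adjusted p = 0.51 and 0.63), and Serpinb6b by 0.21 ± 0.24 and 0.05 ± 0.24 (adjusted p = 0.68 and 0.90).

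Markers of some cell types other than hepatocytes moved with genotype beside these genes. Of 12 Kupffer cell and macrophage markers, limma called 10 higher in fasted mutants and 0 in unfasted mutants, where 4 had an unadjusted p under 0.05 and the median difference was 0.29. Their mean over markers was 8.79 to 9.32 on unfasted heterozygous arrays, 9.02 to 9.69 on unfasted mutant, 8.78 to 9.29 on fasted heterozygous and 9.49 to 9.84 on fasted mutant arrays. Endothelial markers were called higher for 6 of 10 unfasted and 7 of 10 fasted. Their means were 9.20 to 9.58 and 9.70 to 10 in unfasted, and 9.35 to 9.56 and 9.82 to 10.04 in fasted heterozygotes and mutants. The mean of 10 neutrophil markers lay between 6.19 and 6.47 on every array. Of these markers, limma called 1 higher in unfasted mutants and 0 in fasted mutants. At an unadjusted p under 0.05 there were 5 higher in unfasted mutants, and 1 higher and 3 lower in fasted mutants. Unfasted, their means were 6.19 to 6.31 in heterozygotes and 6.32 to 6.47 in mutants, without overlap. Of 9 lymphocyte, 6 cholangiocyte and 6 adipocyte markers, limma called 0 in unfasted mutants. In fasted mutants it called 1 lymphocyte marker higher and 1 lower, 1 cholangiocyte marker lower and 1 adipocyte marker higher. Serpinb6a was higher in both states, as were endothelial markers and stellate cell and fibroblast markers (8 of 12 called unfasted and 3 of 12 fasted). Macrophage markers were called only in fasted mutants, where Serpinb1a was lower. The part of cell makeup in these results was not tested.

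Among the inhibitors of clotting, Serpinc1, antithrombin, which blocks thrombin and factor Xa, differed little. Its unfasted means were 12.82 ± 0.01 in heterozygotes and 12.75 ± 0.04 in mutants (SD, n = 4), and its fasted means 12.78 ± 0.03 and 12.66 ± 0.06. The genotypes did not overlap in either state, but the differences of -0.07 ± 0.04 and -0.12 ± 0.04 were not called (adjusted p = 0.34 and 0.059). The fasted one passed in 5 of 26 other settings, with a smallest adjusted p of 0.029; the only single array whose removal did this was fasted mutant replicate 4 (-0.14, adjusted p = 0.050).

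Serpind1, heparin cofactor II, a thrombin inhibitor, read 12.41, 12.42, 12.40 and 12.39 in fasted heterozygotes and 11.64, 11.87, 12.09 and 12.21 in fasted mutants, without overlap. Unfasted, it read 12.47, 12.41, 12.59 and 12.54 in heterozygotes and 12.25, 12.17, 12.26 and 12.42 in mutants, with mutant replicate 4 inside the heterozygous range. The fasted difference was -0.46 ± 0.09 (1.37-fold lower, adjusted p = 0.0058), called in all 26 other settings too. The unfasted difference of -0.23 ± 0.09 was not called (adjusted p = 0.16).

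Serpinf2, alpha-2-antiplasmin, the main inhibitor of plasmin, read 12.36, 12.25, 12.30 and 12.35 in unfasted heterozygotes and 12.16, 12.14, 12.10 and 12.26 in unfasted mutants. It read 12.50, 12.33, 12.37 and 12.38 in fasted heterozygotes and 11.94, 11.85, 12.20 and 12.28 in fasted mutants. Only the fasted groups were apart. Their difference was -0.33 ± 0.08 (1.26-fold lower, adjusted p = 0.015), and it missed the threshold only without fasted mutant replicate 2 (-0.26, adjusted p = 0.051). The unfasted difference was -0.15 ± 0.08 (adjusted p = 0.30). Serpinf1, pigment epithelium-derived factor, which inhibits no protease, differed by -0.09 ± 0.06 unfasted and -0.11 ± 0.06 fasted (adjusted p = 0.44 and 0.21). The fasted difference passed only without fasted mutant replicate 3 (-0.17, adjusted p = 0.048).

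Serping1, C1 inhibitor, which blocks C1r, C1s, the MASP proteases and plasma kallikrein, was lower in mutants in both states by a small and tight margin. It read 12.68, 12.67, 12.62 and 12.67 in unfasted heterozygotes against 12.40, 12.45, 12.29 and 12.48 in unfasted mutants. Fasted heterozygotes read 12.76, 12.71, 12.70 and 12.73, and fasted mutants 12.35, 12.36, 12.55 and 12.28. All 8 mutant arrays lay below all 8 heterozygous arrays. The difference was -0.26 ± 0.06 unfasted (1.19-fold lower, adjusted p = 0.013) and -0.34 ± 0.06 fasted (1.27-fold lower, adjusted p = 0.0018), and both calls held in all 26 other settings.

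Serpinh1, the collagen chaperone HSP47, which works in the endoplasmic reticulum of collagen-making cells and inhibits no protease, missed the threshold narrowly. It read 7.62, 7.65, 7.72 and 7.64 in unfasted heterozygotes and 7.67, 7.95, 7.96 and 7.90 in unfasted mutants. Fasted, it read 7.52, 7.43, 7.46 and 7.43 against 7.75, 7.55, 7.72 and 7.61. Only the fasted groups did not overlap; unfasted mutant replicate 1, the array with acinar RNA, was the low mutant. The difference was 0.21 ± 0.06 unfasted (adjusted p = 0.054) and 0.20 ± 0.06 fasted (adjusted p = 0.051). Other settings called it in 7 of 25 cases unfasted and 9 of 25 fasted, among them array weights and median-centred arrays for both. Without unfasted mutant replicate 1 the differences were 0.28 (adjusted p = 0.0071) and 0.20 (adjusted p = 0.015). Other arrays whose removal brought a call were fasted mutant replicate 1 for the unfasted contrast, and unfasted mutant replicate 3 or fasted mutant replicate 2 for the fasted one. Stellate cell and fibroblast markers were called higher for 8 of 12 in unfasted and 3 of 12 in fasted mutants. Their mean ran from 8.64 to 8.82 in unfasted heterozygotes, 9.0 to 9.19 in unfasted mutants, 8.54 to 8.74 in fasted heterozygotes and 8.75 to 9.05 in fasted mutants; their part in the Serpinh1 values was not tested.

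Serpine3 of clade E differed by -0.06 ± 0.07 and -0.14 ± 0.07 (adjusted p = 0.68 and 0.17). Serpini1 differed by 0.04 ± 0.05 unfasted and -0.005 ± 0.05 fasted. Serpini2, a gene of pancreatic acinar cells, read 6.22 on unfasted mutant replicate 1, the array with acinar RNA, and 4.85 to 5.01 on the other unfasted mutants. Its unfasted difference of 0.37 ± 0.20 was not called (adjusted p = 0.31), and without that array it was 0.05.

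**Figure D5:**
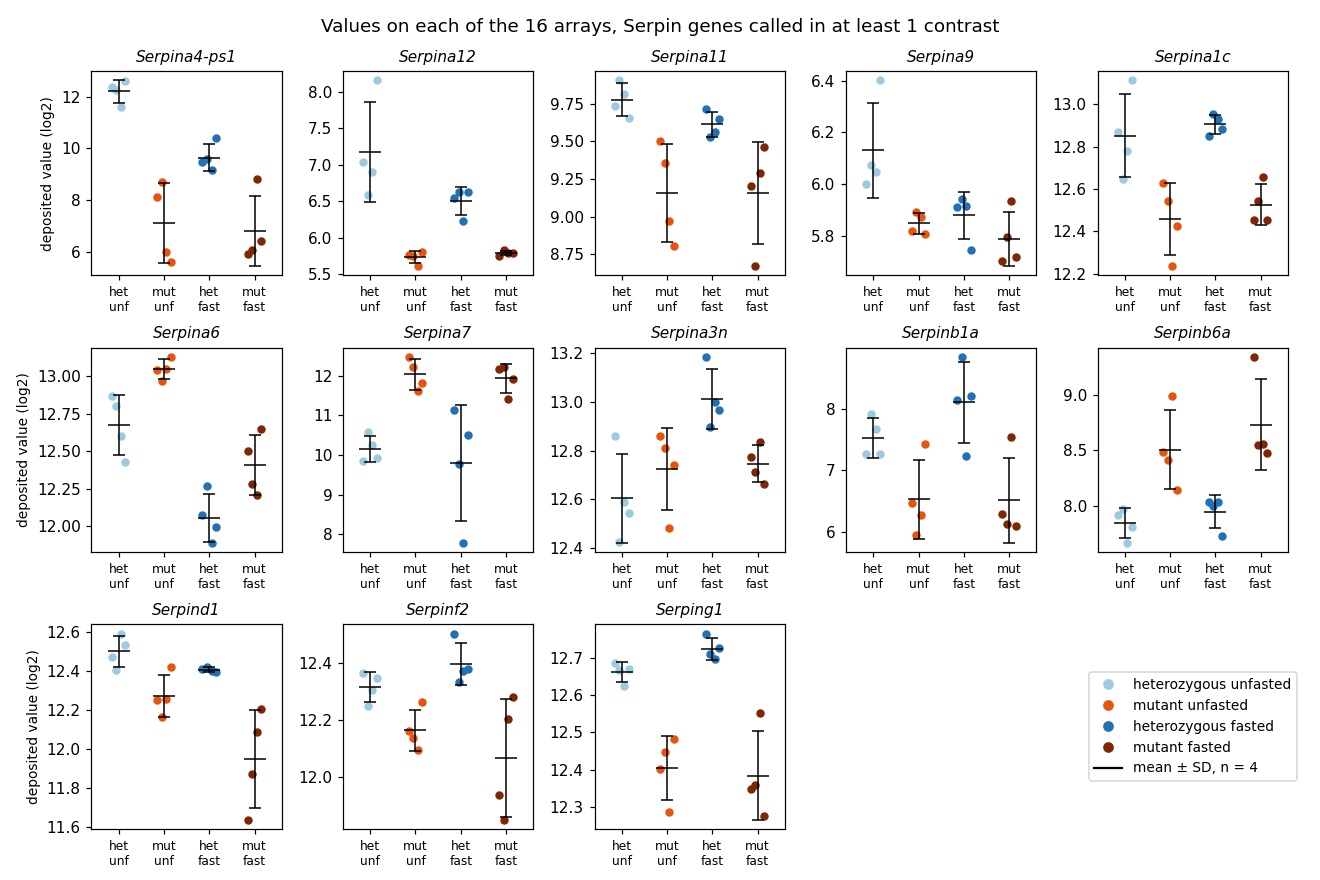
Deposited value (log2, vertical axes, each panel on its own scale) on each of the 16 arrays for the 13 Serpin genes called in at least 1 contrast; black marks are group means ± SD, n = 4. Mutants and heterozygotes separate in both feeding states for Serpina4-ps1, Serpina12, Serpina11, Serpina7, Serpina1c, Serpinb6a and Serping1, while Serpina6 falls with fasting in both genotypes.

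Fasting moved few members. In heterozygotes 2 of 48 Serpin genes were called (4.17%), against 1.57% of all genes. Serpina3n was higher and Serpina6 lower, beside 0.732% and 0.838% of all genes. In mutants 1 of 48 was called lower (2.08%), Serpina6, against 3.35% of all genes called, 1.02% lower and 2.33% higher. The groups did not overlap for 3 Serpin genes higher and 4 lower in heterozygotes (5.35% and 5.11% of all genes, 10.5% together), and for 2 lower in mutants (4.54% of all genes lower and 5.49% higher, 10% together). The fasting contrasts use the same arrays as the genotype contrasts. Serpina6 fell by 0.61 ± 0.11 in heterozygotes (1.53-fold lower, adjusted p = 0.0095) and by 0.64 ± 0.11 in mutants (1.56-fold lower, adjusted p = 0.0091), with no overlap of fasted and unfasted arrays in either genotype. Both calls held in all 26 other settings. Serpina3n rose by 0.41 ± 0.09 in heterozygotes (1.33-fold, adjusted p = 0.041) and read 0.02 ± 0.09 in mutants (adjusted p = 0.81). Its call was lost when any fasted heterozygous array, unfasted heterozygous replicate 2, 3 or 4, or fasted mutant replicate 2 was left out (adjusted p 0.054 to 0.13), and the count for heterozygotes was then 1. Without unfasted mutant replicate 1, the count in mutants was 3, and without fasted mutant replicate 4 it was 2.

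Whether fasting acted differently in the genotypes was tested as the interaction, the mutant minus the heterozygous response. It was called by limma for 0 of 48 Serpin genes and for 0.01% of all genes, and 4 members had an unadjusted p under 0.05. The largest value was that of Serpina4-ps1, 2.25 ± 0.94 (95% interval 0.25 to 4.25, adjusted p = 0.43). Serpina12 gave 0.73 ± 0.31 (adjusted p = 0.44) and Serpina3n -0.38 ± 0.13 (adjusted p = 0.38). For Serpina6 the responses differed by -0.02 ± 0.15, with an interval from -0.35 to 0.30. The calls of Serpina3n in heterozygotes and of several members in a single feeding state are therefore not shown to differ between genotypes or states.

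The proteases and partners that serpins meet were read from the same fits. Of 16 measured genes of clotting, among them thrombin (F2) and other targets of antithrombin but also cofactors and fibrinogen, which it does not inhibit, limma called 4 lower in unfasted mutants (3.69% of all genes were lower), namely F11 (-0.80), F9 (-0.46), F13b (-0.37) and Proc (-0.23, adjusted p = 0.050). In fasted mutants 5 were lower (5.01% of all genes), namely F7 (-0.57), F9 (-0.45), Proc (-0.34), F13b (-0.29) and F2 (-0.17, adjusted p = 0.038). None was called higher by limma, though 1 unfasted and 2 fasted were higher with an unadjusted p under 0.05. The median difference of the list was -0.07 unfasted and -0.14 fasted.

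The same shares over all genes, 3.69% lower unfasted and 5.01% lower fasted, stand beside the counts of lower genes that follow. Of 7 measured genes of the plasminogen system, 1 was called lower in unfasted mutants, Plg, plasminogen (-0.18), and 4 in fasted mutants, Lrp1 (-0.41), Hrg (-0.35), Plg (-0.23) and Vtn, vitronectin (-0.22). None was called higher by limma, and 2 were higher in unfasted mutants with an unadjusted p under 0.05. Of the 5 measured complement proteases that C1 inhibitor blocks, 2 were lower unfasted, Masp1 (-0.33) and C1s2 (-0.32), and 4 fasted, C1s1 (-0.52), Masp1 (-0.43), C1s2 (-0.30) and C1ra (-0.30). Higher calls, and higher differences with an unadjusted p under 0.05, numbered 0 of 5 in both states. The median difference was -0.10 and -0.22 for the plasminogen list and -0.27 and -0.30 for the complement list, unfasted and fasted.

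Of 14 plasma protease inhibitors that are not serpins, 3 were lower in unfasted mutants, Mug2 (-0.67), Mug1 (-0.36) and Ambp (-0.16). None was called higher by limma there, but 4 were higher and 4 lower with an unadjusted p under 0.05. In fasted mutants 6 were lower, led by Mug2 (-0.79), Mug1 (-0.45) and Itih3 (-0.34). Another 2 were higher (8.62% of all genes), with Tfpi, the tissue factor pathway inhibitor, at 0.55. The median difference of the list was -0.03 unfasted and -0.10 fasted. Of 6 neutrophil and mast cell proteases, limma called 0 in either state, and 0 had an unadjusted p under 0.05. Of 8 granzymes, cathepsins and Casp1, which clade B serpins can meet, Ctsh was lower unfasted (-0.29) and fasted (-0.27). In fasted mutants Ctss (0.76), Ctsl (0.40) and Casp1 (0.25) were higher (8.62% of all genes). Ctss is a lysosomal protease abundant in macrophages, whose markers were higher in the same animals; their part was not tested.

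Of 14 measured collagens and collagen-modifying enzymes, the partners of Serpinh1, Col4a2 (0.45) and Col4a1 (0.29) were called higher in unfasted mutants (4.25% of all genes). In fasted mutants Crtap (0.64), Col4a2 (0.34) and Col4a1 (0.26) were higher (8.62% of all genes) and P4ha2 (-0.20) was lower. Of the 70 measured genes of these 7 lists, limma called 0 in either fasting contrast and 0 in the interaction. At an unadjusted p under 0.05 there were 7 higher and 3 lower in fasted heterozygotes, 1 higher and 6 lower in fasted mutants, and 2 higher and 3 lower in the interaction.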

How the data were processed

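The authors deposited 1 table of log2 values for 16 arrays and 35556 probe sets, made with Affymetrix Expression Console and RMA per the submitters' processing notes. Tool versions and a genome build are not given in the sources used here. RMA quantile-normalizes the arrays, so a shift shared by all genes is not visible. The log2 scale was inferred from the range of 3.80 to 14.33. Labelling used 300 ng of total RNA, per the labels' protocols. Precision is limited by the number of arrays and by each gene's spread.

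Symbols came from the platform annotation and were updated through a RefSeq table (GRCm38.p6): 21789 probe sets had a single symbol, of which 21698 matched, while 1621 had several and 12146 none. For 999 genes with several probe sets the highest mean was used. Differences were fitted with limma 3.58.1 in R 4.3.3, with 1 mean for each group over all arrays, eBayes with an intensity trend and no brightness filter, after a check on simulated data. Replicates were separate mice by the series' design text, and correlations within groups ran from 0.985 to 0.996.

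Every called member is named with all its values, as are uncalled plasma serpins of known role, some by group means; others are given by clade. Partner genes are named for up to 4 called in each list and contrast, by largest difference, and F2 was named beyond this limit. Alternatives were a replicate block, other normalizations, moderation, array weights, filters, probe set means and leaving out each array. The members, lists and rules were chosen with earlier results of these data known. Probe sets with several symbols were not tested.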

Additional observations from a re-analysis of the deposited data

Results flagged for a closer look

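In 76 groups of 4 arrays (19 named genes), 5 held a highest or lowest array whose gap to its nearest neighbour was past Dixon's 95% critical value, where chance gives about 1 in 20. Serpina9 read 5.74 on fasted heterozygous replicate 4, below 5.91 to 5.94 on the others of its group. Serpinb1a read 7.55 on fasted mutant replicate 3, above 6.10 to 6.29. Serpinb6a read 7.73 on fasted heterozygous replicate 4, below 8.00 to 8.04, and 9.34 on fasted mutant replicate 1, above 8.47 to 8.56. Serpini2 read 6.22 on unfasted mutant replicate 1, above 4.85 to 5.01.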

How the results depend on the processing

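With single arrays left out, the number of Serpin genes called was 4 to 10 for genotype unfasted, 8 to 12 for genotype fasted, 1 to 3 for fasting in heterozygotes, 1 to 3 for fasting in mutants, and 0 to 0 for the interaction. The count for fasting in heterozygotes, 2 in the reported fit, was 4 with only the arrays compared, 5 with array weights and 1 with arrays centred on their medians. The count for fasting in mutants, 1 as reported, was 2 with array weights and 2 among genes above the median brightness. For genotype unfasted, the calls of Serpina1c, Serpina6 and Serpina9 were lost with only the arrays compared. Those of Serpina6 and Serpina9 were also lost with array weights, and that of Serpina7 with robust moderation. For these changes the cause was not tested. The Serpina1d difference in unfasted liver, 0.27, turned to -0.12 without heterozygous unfasted replicate 2 and to -0.16 without replicate 3, its low arrays, and ran up to 0.72 over the single arrays left out. Replicate numbers were not shown to pair the mice. Deviations of same-numbered arrays correlated at -0.12 to 0.25, with 9 of 24 pairs over 0.1 and 6 of 16 arrays closest to their own number. Without the range for differently numbered arrays, these values cannot exclude a pairing. A replicate block gave 9, 11, 2, 1 and 0 calls in the order above. The dim count was 27, or 30 with either other limit. With 4 arrays in a group and no detection calls, small differences and those of dim genes can be missed or understated.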
